A study of Mus musculus with 2 samples.

Results

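T cells whose receptor carries V beta 5, V beta 11 or V beta 12 were picked out of pooled donor T cells that had entered the colon in a mouse model of graft-versus-host disease. A cell was counted among them when at least 2 of its UMIs (unique molecular identifiers, each standing for 1 captured RNA molecule) came from Trbv genes and at least 80% of these came from Trbv12-1, Trbv12-2, Trbv15 or Trbv16. Of 5333 kept cells, 3323 were led by 1 segment in this way, and 484 of these (14.6%, 95% interval 13.4 to 15.8) carried V beta 5, 11 or 12. Trbv12-1 led 206 cells, Trbv12-2 led 69, Trbv15 led 113 and Trbv16 led 96. The comparison cells were 2588 cells led by 16 other segments, while 251 cells led by Trbv26 (V beta 3) were left out of the gene comparisons. The numbers chosen by the rule, and the levels of Trbv, Cd4, Cd8a and Cd8b1, are a description.

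The donors were C57BL/6 mice and the recipients lethally irradiated Balb/c mice, which were given 5000000 cells of bone marrow together with splenocytes that supplied 800000 alpha beta T cells. Colons of 5 recipients were pooled on day 21 and cells positive for H2-Kb and TCR beta were sorted, so that all cells compared share this donor strain, host and time. RNA was counted with the 5′ version 2 chemistry of 10x Genomics, and a receptor (TCR) library was made by nested PCR from the same cDNA. Both libraries together are 1 sample, with no untransplanted or syngeneic group, and cells of the 5 mice cannot be told apart. No test was therefore made, and every interval below covers counting error only and takes UMIs as independent. The sample titles name CD4 T cells, but cells with Cd8a or Cd8b1 UMIs were the larger class here.

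As background, the T cell receptor beta chain is built by joining a V, a D and a J segment, and the bases at the joins are added or trimmed at random. Superantigens encoded by endogenous mouse mammary tumour viruses bind the side of certain V beta chains, among them V beta 5, 11 and 12, when shown on the MHC class II molecule I-E. Balb/c mice have I-E and such viruses and delete these T cells in the thymus, whereas C57BL/6 mice lack I-E and keep them. Whether a V beta 5, 11 or 12 cell of a C57BL/6 graft differs in the Balb/c colon from the other donor cells is the question the comparison addresses.

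The 4 segments lie on the plus strand of chromosome 6, in the mm10 assembly. In the GENCODE annotation, Trbv12-1 (ENSMUSG00000095574, V beta 5.2 in RefSeq) spans chr6:41113550-41114067 and Trbv12-2 (ENSMUSG00000094525, V beta 5.1) spans chr6:41118851-41119364. Trbv15 (ENSMUSG00000076472, V beta 12) spans chr6:41141188-41141658 and Trbv16 (ENSMUSG00000076473, V beta 11) spans chr6:41151740-41152230. The coding sequences of Trbv12-1 and Trbv12-2 were 87.4% identical, whereas the other pairs were 52.1% to 66.3% identical. The last 120 bases of this near-identical pair are shown because reads could be split between them, with the 9 bases that differ in capitals.
Trbv12-1: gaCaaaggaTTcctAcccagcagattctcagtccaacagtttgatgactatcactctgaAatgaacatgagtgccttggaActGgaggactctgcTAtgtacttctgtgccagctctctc
Trbv12-2: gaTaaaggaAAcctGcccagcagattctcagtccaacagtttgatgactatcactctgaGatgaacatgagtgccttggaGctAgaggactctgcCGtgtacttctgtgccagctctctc

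The TCR library gave a readout of the V segment that the rule did not use, although from the same cDNA. A productive TRB contig, which is an assembled beta chain with an open reading frame, was found in 91.5% of V beta 5, 11 and 12 cells (443 of 484) and in 71.4% of cells led by other segments (1848 of 2588). In these, the contig carried the cell's own segment in 97.7% of V beta 5, 11 and 12 cells (95.9 to 98.9) and in 97.2% of the others (96.3 to 97.9). By segment the contig matched in 174 of 177 cells for Trbv12-1, 65 of 69 for Trbv12-2, 110 of 110 for Trbv15 and 84 of 87 for Trbv16. The match was thus close for the near-identical pair too, in cells that had passed the 80% limit. It cannot show reads split between the pair in cells that failed the limit. Of the 56 and 30 kept cells that shared 2 large Trbv12-1 receptors, 17 and 11 were not called by the rule. The counts were 2 of 27 for a large Trbv15 receptor and 0 of 11 for a Trbv12-2 receptor, and the cause was not tested. Near the limits of the rule, 34 cells had exactly 2 Trbv UMIs and matched in 21 of 27 cases, and 46 cells just outside, with 1 Trbv UMI from these segments, matched in 14 of 24. Cells with 80% to under 90% of Trbv UMIs from their segment matched in 101 of 104 cases, and those just outside, at 70% to under 80%, in 58 of 62. In the other direction, 411 of the 559 cells (73.5%) whose only productive TRB contig carried these segments were counted by the rule.

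Cd3e, Cd3d or Cd3g UMIs, which mark T cells, were found in 484 of 484 V beta 5, 11 and 12 cells and in 2587 of 2588 others. The cell filters kept 5333 of 5348 barcodes with 32705014 UMIs and a median of 4800 UMIs per cell. The contig table listed 5990 barcodes, of which 5143 were among the RNA barcodes. The depth of the groups compared was close: the median was 5239 UMIs in V beta 5, 11 and 12 cells and 5237 UMIs in others of the CD8 class, and 5504.5 against 5054 UMIs in the CD4 class. Markers of B cells, neutrophils and epithelium were at or near 0 in both groups, and 3.31% of V beta 5, 11 and 12 cells and 4.40% of the others had UMIs of 2 or more genes of a macrophage list.

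V beta 5, 11 and 12 cells were mostly CD8 cells. Of the 484, 349 had Cd8a or Cd8b1 UMIs without Cd4, 88 had Cd4 UMIs only, 17 had both and 30 had neither, against 1110, 996, 103 and 379 of the cells led by other segments. CD8 cells thus made up 79.9% of the V beta 5, 11 and 12 cells with 1 lineage (75.8 to 83.5) and 52.7% of the others (50.5 to 54.9). By segment the CD8 share was 90.2% for Trbv12-1, 76.6% for Trbv12-2, 71.1% for Trbv15 and 68.7% for Trbv16. All 4 values were over 50%, as they were for 7 of the 16 other segments, whose shares ran between 4.12% for Trbv31 and 100% for Trbv24. A high CD8 share was therefore found for other segments as well. By clonotype the CD8 share was lower and close between the groups, at 51.7% for V beta 5, 11 and 12 (42.3 to 61.0) and 50.4% for the others (45.3 to 55.5). By segment it was 60% of clonotypes for Trbv12-1, 45.8% for Trbv12-2, 35.5% for Trbv15 and 63.6% for Trbv16.

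Counted the other way, V beta 5, 11 and 12 made up 23.7% of the CD8 cells led by 1 segment (349 of 1471, 21.6 to 26.0) and 7.12% of the CD4 cells (88 of 1236, 5.75 to 8.70). Counted by clonotype, the shares of the classes were close. A clonotype is defined by its productive alpha and beta CDR3 sequences, the hypervariable loops, and their V and J segments. V beta 5, 11 and 12 held 61 of 254 CD8 clonotypes, or 24.0% (18.9 to 29.8), and 57 of 251 CD4 clonotypes, or 22.7% (17.7 to 28.4). Contig recovery was unequal between segments and bears on these counts. In the CD4 class 94.3% of V beta 5, 11 and 12 cells and 68.8% of the others had a productive TRB contig, and over all classes the lowest values were 2.79% for Trbv26 and 9.25% for Trbv13-2. Among cells that had a clonotype, which are the cells the clonotypes were counted in, V beta 5, 11 and 12 made up 21.8% of CD8 cells (191 of 875) and 10.4% of CD4 cells (65 of 625, 8.12 to 13.1). The gap between cells and clonotypes in the CD4 class thus remained in cells with full receptors. Among expanded clonotypes, those with 2 or more kept cells, V beta 5, 11 and 12 held 22 of 99 in the CD8 class (22.2%) and 11 of 100 in the CD4 class (11%, 5.62 to 18.8). Among clonotypes seen in 1 cell they held 39 of 155 in the CD8 class (25.2%) and 46 of 151 in the CD4 class (30.5%, 23.2 to 38.5).

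**Figure D1:**
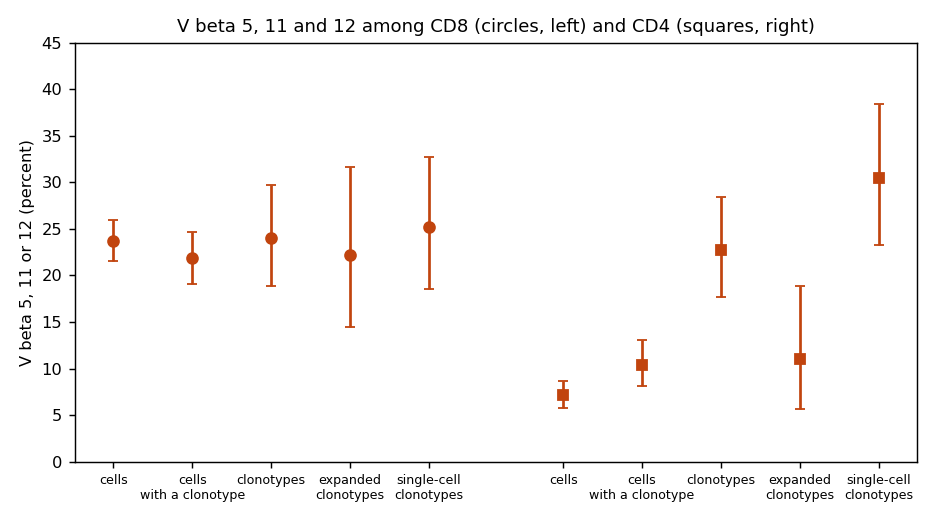
Percent of cells led by 1 segment, of those with a clonotype, and of all, expanded and single-cell clonotypes that carried V beta 5, 11 or 12, with exact 95% binomial intervals, for the CD8 class (circles) and the CD4 class (squares). The CD8 values lay between 21.8% and 25.2%, while in the CD4 class the share was 7.12% of cells and 22.7% of clonotypes.

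Clonal expansion, which is the number of cells that share a receptor, differed more between the groups in the CD4 class than in the CD8 class. In the CD4 class 29.2% of V beta 5, 11 and 12 cells (19 of 65, 18.6 to 41.8) and 81.8% of cells with other segments (455 of 556, 78.4 to 85.0) belonged to expanded clonotypes. The 65 CD4 cells held 57 clonotypes, the largest with 4, 3 and 2 cells, while 65 cells drawn from the others would hold 41.7 clonotypes on average and their largest clonotype had 40 cells. By segment the expanded share was 23.1% for Trbv12-1 (3 of 13 cells), 15.4% for Trbv12-2 (2 of 13), 22.7% for Trbv15 (5 of 22) and 52.9% for Trbv16 (9 of 17). These 4 values stood against 18.2% to 100%, with a median of 85.9%, for the 12 other segments with at least 10 such cells, so that the ranges overlapped. With the TRB chain alone, which does not need a TRA contig, the CD4 shares were 35.4% (29 of 82 cells) and 85.5% (577 of 675).

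In the CD8 class the same measure was close between groups, with 79.6% of V beta 5, 11 and 12 cells (152 of 191, 73.2 to 85.1) and 83.0% of the others (567 of 683, 80 to 85.8) in expanded clonotypes. Their largest clonotypes had 39, 25 and 19 cells, against 200, 81 and 21 cells among the others, and 191 cells held 61 clonotypes, against 78.2 in the same number drawn from the others. The expanded share was 88.4% for Trbv12-1, 81.8% for Trbv12-2, 85.7% for Trbv15 and 43.3% for Trbv16 (13 of 30 cells, 25.5 to 62.6). Trbv16 was thus the segment with the lowest expanded share of the 4 in the CD8 class and the highest in the CD4 class.

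**Figure D2:**
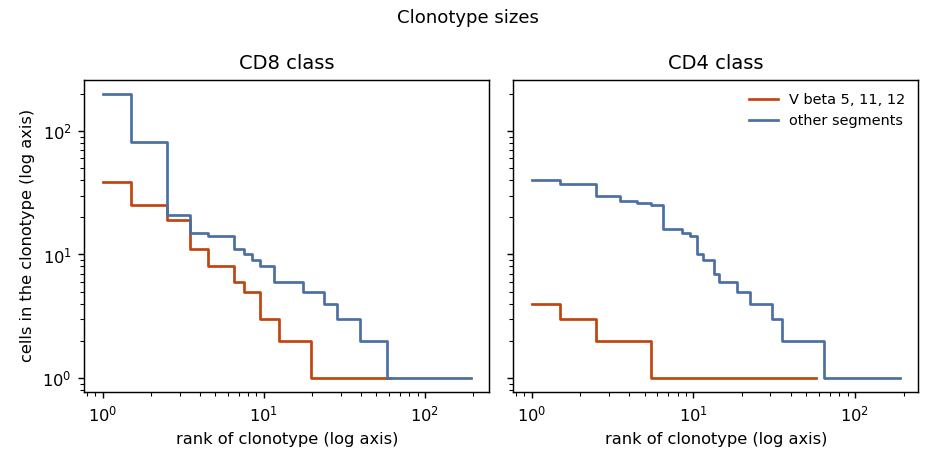
Cells per clonotype against the clonotype's rank, both on log axes, for V beta 5, 11 and 12 cells and cells led by other segments in the CD8 class (left) and the CD4 class (right). V beta 5, 11 and 12 clonotypes reached 39 cells in the CD8 class but 4 cells in the CD4 class, against 200 and 40 cells among other segments.

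The joins of the largest clonotypes are shown as TRB CDR3 sequences, with the bases that match neither the germline V nor the germline J segment in capitals. They differ between clonotypes of the same segment. The first 3 belong to the CD8 class and the last 3 to the CD4 class.
CD8, Trbv12-1 with TRBJ1-2, 39 cells: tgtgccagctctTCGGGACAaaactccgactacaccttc
CD8, Trbv15 with TRBJ2-7, 25 cells: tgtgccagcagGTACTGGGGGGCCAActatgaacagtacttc
CD8, Trbv12-1 with TRBJ1-2, 19 cells: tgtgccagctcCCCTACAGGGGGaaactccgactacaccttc
CD4, Trbv16 with TRBJ1-4, 4 cells: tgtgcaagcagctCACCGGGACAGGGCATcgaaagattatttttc
CD4, Trbv16 with TRBJ2-7, 3 cells: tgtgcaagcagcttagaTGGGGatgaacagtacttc
CD4, Trbv12-1 with TRBJ2-2, 2 cells: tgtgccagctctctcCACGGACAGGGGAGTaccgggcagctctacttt
Counted by TRB chain alone over all kept cells, the third of these CD8 chains was the largest. It was found in 121 kept cells, of which 119 were CD8, none CD4, and 76 had no productive TRA contig, and 63 of them were counted by the rule. The first CD8 chain was found in 68 kept cells and the Trbv15 chain in 51. Over distinct TRB chains, the J segments belonged to the TRBJ2 cluster in 73.1% of V beta 5, 11 and 12 chains (57 of 78) and 68.1% of the others (143 of 210) in the CD8 class, and in 72.9% (51 of 70) and 64.3% (128 of 199) in the CD4 class. The CDR3 length was 13.9 ± 1.28 codons for V beta 5, 11 and 12 and 13.6 ± 1.53 for the others in the CD8 class, and 13.8 ± 1.53 and 13.8 ± 1.45 in the CD4 class (SD over chains). Apart from the V segment, the loops of both groups were thus alike in length to within their spread.

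A second productive TRB chain, which a T cell can keep when both alleles rearrange and which a droplet with 2 cells also gives, was found in 22 of 443 V beta 5, 11 and 12 cells (4.97%, 3.14 to 7.42) and in 35 of 1848 others (1.89%, 1.32 to 2.62). In the CD8 class the counts were 14 of 316 (4.43%) and 14 of 814 (1.72%), and in the CD4 class 1 of 83 and 10 of 685. The 22 cells held 15 distinct pairs of chains, 14 cells had Trbv4 as a partner, and 7 cells had UMIs of both lineages. Their median was 8809.5 UMIs, against 5272 UMIs over all 484 cells. A pair shared by 7 CD8 cells, with a median of 6166 UMIs, is shown because it makes up 7 of the 14 cells of its class. Its Trbv16 chain was found in 24 kept cells and its Trbv4 chain in 21.
Trbv16 with TRBJ2-1: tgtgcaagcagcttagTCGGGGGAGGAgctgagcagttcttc
Trbv4 with TRBJ1-5: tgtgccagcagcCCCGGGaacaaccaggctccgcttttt
A second productive TRA chain was found in 10.3% of V beta 5, 11 and 12 cells (33 of 319) and in 17.3% of the others (355 of 2053).

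Gene levels were compared as UMIs summed over all cells of a group per 10000 UMIs. In the CD4 class, V beta 5, 11 and 12 cells had higher levels of genes of type 2 helper cells (Gata3, Il1rl1, Il13), and of Csf2 and Klrk1. They had lower levels of genes of type 17 helper cells (Il1r1, Il17re, Il22), of naive and memory cells and tissue exit (Lef1, S1pr1), and of Ccl5, Gzmk and Trat1. However, 52.1% of the Il13 UMIs came from 1 cell, and the shares of cells showed no difference for Il22, as given below. Of 7996 genes with at least 50 UMIs over both groups, 559 (6.99%) were 1.5-fold or more higher and 972 (12.2%) 1.5-fold or more lower in V beta 5, 11 and 12 cells, on the ratio alone. At 2-fold, 1.81% were higher and 4.06% lower, and the median log2 ratio of all genes was -0.04. The 88 cells held 648536 UMIs and the 996 others held 6340127, so that counting error alone moves low genes past this fold. Since the others are largely clones, the value with 1 cell per clonotype, with 57 cells against 190, is given too where it moved the ratio by over 1.5 times or ended the call. The cell taken was the first of its clonotype by barcode, not a mean of the clonotype, and cells without a clonotype were left out.

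Gata3, the transcription factor that sets the type 2 helper fate, had 2.24 UMIs per 10000 in V beta 5, 11 and 12 cells and 0.737 in the others, a ratio of 3.04 (2.50 to 3.66). Among V beta 5, 11 and 12 cells its level was 3.37 with Trbv12-1, 2.25 with Trbv12-2, 2.46 with Trbv15 and 1.02 with Trbv16, against 0.407 to 2.27 with a median of 0.686 in the 12 other segments with at least 15 cells. All 4 segments stood above that median and 2 above each of the 12. Il1rl1, the receptor for interleukin 33, had 0.863 and 0.233 UMIs per 10000, a ratio of 3.70 (2.67 to 5.06). It was above each of these 12 with Trbv12-1, Trbv12-2 and Trbv15, at 1.04, 1.5 and 1.15, but not with Trbv16, at 0.152, the others reaching 0.716. With 1 cell per clonotype the log2 ratio was 1.07 for Gata3 and 1.58 for Il1rl1, against 1.60 and 1.89 over all cells.

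Il13, which encodes a cytokine of type 2 helper cells, had 1.09 UMIs per 10000 in V beta 5, 11 and 12 cells and 0.121 in the others, but 52.1% of its 71 UMIs came from 1 cell. By segment its level was 1.80 with Trbv12-1 and 2.01 with Trbv15, while Trbv12-2 and Trbv16 had no Il13 UMI, and the 12 other segments ran between 0 and 0.455. Its log2 ratio was 3.17 over all cells, 2.11 without the 1 cell with the most Il13 UMIs and 0.40 with 1 cell per clonotype. Of the 6 genes of the type 2 list that were measured, 5 were past 1.5-fold higher (Gata3, Il4, Il13, Il1rl1 and Ccr8) and 1 (Ccr4) lower, and the list median was 1.46 over all cells, 0.77 with 1 cell per clonotype and 0.45 in clonotypes of 1 cell. The direction thus held in the 3 settings while the size fell.

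Csf2, the gene of the cytokine GM-CSF, had 4.07 UMIs per 10000 in V beta 5, 11 and 12 cells and 1.15 in the others, a ratio of 3.53 (3.06 to 4.07) over all cells and of 2.03 with 1 cell per clonotype. Its level was 8.47 with Trbv12-1, 1.0 with Trbv12-2, 2.66 with Trbv15 and 2.90 with Trbv16, against 0 to 4.42 with a median of 0.904 in the 12 other segments. Trbv12-1 stood above each of the 12, and the other three lay within their range. In cells thinned to 2000 UMIs each, with no cell left out, 27.3% of V beta 5, 11 and 12 cells and 8.23% of the others had a Csf2 UMI, against 34.1% and 11.8% before thinning. In 75 barcodes with at least 4 macrophage genes, which had a median of 7340 UMIs, the thinned share was 4.0% (0.833 to 11.2). These barcodes held T cell RNA too, so they are no clean background level. Their thinned share was 62.7% for Ccl5 and 22.7% for Gzmk, against 61.1% and 13.8% of the other CD4 cells. For Gata3 the thinned shares of V beta 5, 11 and 12 cells, the others and these barcodes were 35.2%, 13.3% and 10.7%. For Il1rl1 they were 11.4%, 3.61% and 1.33%. The Gata3 share of the other CD4 cells was thus within the interval of the macrophage barcodes (4.72 to 19.9), and that of V beta 5, 11 and 12 cells was above it.

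**Figure D3:**
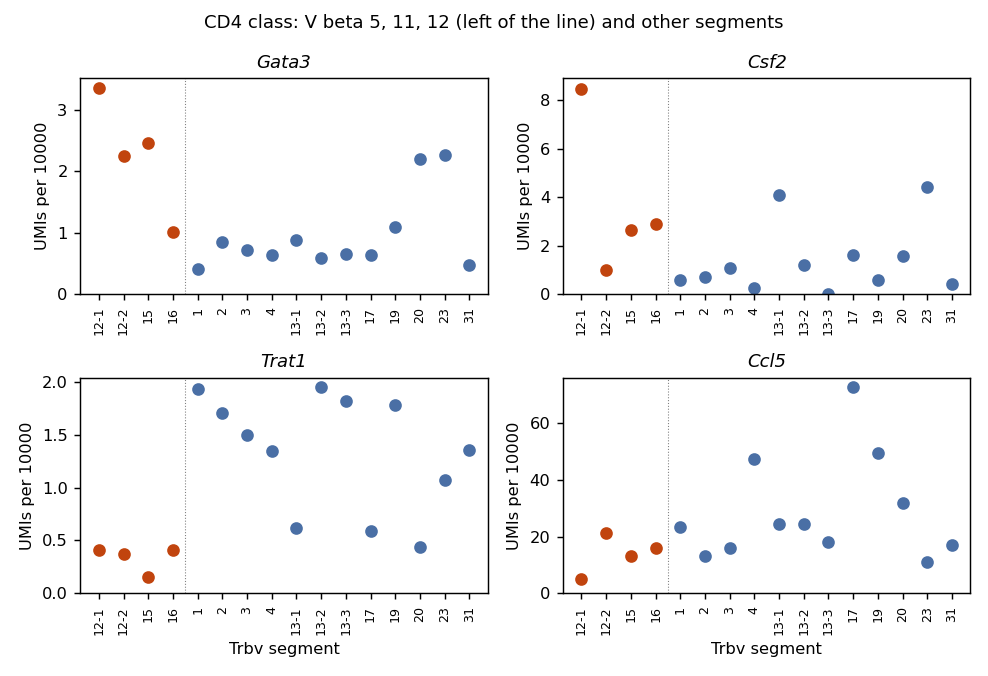
UMIs per 10000 of Gata3, Csf2, Trat1 and Ccl5 in CD4 cells, 1 point per Trbv segment, with the V beta 5, 11 and 12 segments left of the dotted line and the 12 other segments with at least 15 cells to its right. Trat1 was at 0.150 to 0.406 in all 4 segments on the left and at 0.439 to 1.95 in the others.

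Of 15 cytokine genes measured, 8 were past 1.5-fold higher and 3 lower, with a median log2 ratio of 0.65 over all cells, 0.90 with 1 cell per clonotype and 0.09 in clonotypes of 1 cell. The lower genes were Il22, Il10 and Ltb. Ifng, the cytokine of type 1 helper cells, had 3.96 and 1.89 UMIs per 10000. However, 51.8% of its UMIs in V beta 5, 11 and 12 cells came from 1 cell, and without that cell its log2 ratio was 0.01. The chemokine genes Ccl1 and Xcl1 likewise drew 58.3% and 57.7% of their UMIs from 1 cell. Their log2 ratios were 2.13 and 2.85 over all cells and 0.10 and 0.75 with 1 cell per clonotype. Ccl1 had a UMI in 23.9% of thinned V beta 5, 11 and 12 cells and 6.73% of the others, so its detection was more frequent as well, with 5.33% in the macrophage barcodes.

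Type 17 genes were lower. Of 7 measured, 5 were past 1.5-fold lower and none higher, with a median log2 ratio of -2.0, and of -2.28 and -0.56 with 1 cell per clonotype and in clonotypes of 1 cell. Il1r1, the interleukin 1 receptor, had 1 UMI in V beta 5, 11 and 12 cells and 135 in the others, a ratio of 0.0724 (0.00182 to 0.41). Il22 had 0 UMIs and 217, with an interval of the ratio from 0 to 0.168. Its level was 7.40-fold lower when a floor of 3 UMIs over the group was put in place of 0. However, only 24 of the 996 others had an Il22 UMI, and 30.9% of their UMIs came from 1 cell. The thinned share of the others, 1.31%, lay within the interval of the V beta 5, 11 and 12 cells (0 to 4.11). The shares of cells thus show no difference for Il22. Il17re, a subunit of an interleukin 17 receptor, had 4 UMIs and 186. The numbers in V beta 5, 11 and 12 cells were thus too small to order these genes, and Il17a, with a log2 ratio of -0.11, did not share the difference.

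Genes of naive and memory T cells and of exit from tissue were lower in 7 of 8 cases and higher in none, with a median log2 ratio of -0.89 over all cells, -0.60 with 1 cell per clonotype and -0.44 in clonotypes of 1 cell. Lef1, a transcription factor of naive and memory cells, had 0.308 UMIs per 10000 in V beta 5, 11 and 12 cells and 0.946 in the others, a ratio of 0.326 (0.198 to 0.508). By segment its level was 0.290, 0.25, 0.351 and 0.305 with Trbv12-1, Trbv12-2, Trbv15 and Trbv16, below the lowest of the 12 other segments, at 0.565. Trat1, a transmembrane adaptor of the T cell receptor complex, had 0.324 and 1.54 UMIs per 10000, a ratio of 0.21 (0.129 to 0.322), and was also below each of the 12 other segments in all 4. Counting each clonotype as 1 cell gave log2 ratios of -2.01 for Lef1 and -2.67 for Trat1, so that these differences did not shrink. S1pr1, the receptor that lets lymphocytes leave tissue, had 15 and 327 UMIs, a log2 ratio of -1.16 over all cells and -0.45 with 1 cell per clonotype. Other genes with low ratios were Tox2, a relative of the transcription factor Tox, at 0.19 (0.0693 to 0.419), Trib2 at 0.151 (0.0488 to 0.357), Cxcl10 at 0.167 (0.0665 to 0.346) and Esm1 at 0.0792 (0.00953 to 0.289), the last on 2 UMIs and at 0.125 with 1 cell per clonotype. Sgip1 and Eomes had 0 UMIs in V beta 5, 11 and 12 cells, with ratio intervals that reached 0.171 and 0.232. Against the floor of 3 UMIs they were 7.26-fold and 5.35-fold lower.

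Cytotoxic genes did not move as a block. Of 13 measured, 7 were past 1.5-fold higher and 1 lower, with a median log2 ratio of 0.77, and of 0.51 with 1 cell per clonotype and 0.24 in clonotypes of 1 cell. Klrk1, which encodes the activating receptor NKG2D, had 1.11 UMIs per 10000 in V beta 5, 11 and 12 cells and 0.218 in the others, a ratio of 5.1 (3.78 to 6.83) over all cells and of 2.57 with 1 cell per clonotype, and its level was 0.864 to 1.51 in the 4 segments. Gzma, a granzyme, had a ratio of 4.08, but its UMIs came from 13 cells, with 46.9% from 1 cell, and Trbv12-1 cells had none. The thinned share of cells with a Gzma UMI was 12.5% of V beta 5, 11 and 12 cells and 11% of the others, with 9.33% in the macrophage barcodes, so that the shares of cells were close. Gzmk, the granzyme that was lower, had 0.108 and 1.15 UMIs per 10000, a ratio of 0.0939 (0.0376 to 0.194) on 7 UMIs in V beta 5, 11 and 12 cells, and of 0.246 with 1 cell per clonotype. Ccl5, a chemokine of effector T cells, had 12.8 and 29.1 UMIs per 10000, a ratio of 0.44 (0.41 to 0.472), and its level was under the median of the other segments with all 4, at 5.11, 21.1, 13.0 and 16.0 against a median of 23.9.

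Of 12 genes of the receptor complex and its proximal signalling, 2 were past 1.5-fold lower and none higher, where 12.2% of all genes were lower. The count was thus near that of all genes. The 2 were Cd5 and Cd6, which restrain the receptor's signal, at ratios of 0.574 (0.492 to 0.665) and 0.643 (0.547 to 0.752). They were at 0.766 and 0.671, short of that fold, with 1 cell per clonotype. Lat, an adaptor, was at 0.724, and the list median was -0.23. Of 12 genes of the early response to receptor signals, 5 were past 1.5-fold higher and 1 lower, with a median of 0.37 over all cells and -0.22 in clonotypes of 1 cell. Tnfrsf9, the costimulatory receptor 4-1BB, had 3.90 and 1.98 UMIs per 10000, a ratio of 1.97 (1.72 to 2.26). Egr3, an early response transcription factor, had a ratio of 12.2, but 80% of its 30 UMIs came from 1 cell. Pdcd1, the inhibitory receptor PD-1, was at 1.51 (1.31 to 1.74) and Lag3 at 1.71 (1.40 to 2.07) over all cells. With 1 cell per clonotype neither was past 1.5-fold higher, at log2 ratios of 0.16 for Pdcd1 and -0.31 for Lag3. Ctla4, another inhibitory receptor, was lower, at 0.676 (0.598 to 0.762) over all cells and 0.648 with 1 cell per clonotype. Of 15 genes of anergy and chronic stimulation, 5 were past 1.5-fold higher and 1 lower, with a median of -0.003. Il2ra, the alpha chain of the interleukin 2 receptor, was at 1.84 (1.55 to 2.18), with log2 ratios of 0.88 over all cells and 0.81 with 1 cell per clonotype.

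Among the remaining named genes, Ifitm1, an interferon-induced membrane protein gene, had 11.8 and 3.0 UMIs per 10000, a ratio of 3.93 (3.61 to 4.27), and had a UMI in 38.6% of thinned V beta 5, 11 and 12 cells, 9.74% of the others and 20% of macrophage barcodes. Its ratio was 2.33 with 1 cell per clonotype. Ccdc184 was at 4.64 (3.63 to 5.89), Calca at 6.19 (4.25 to 8.93) and Hs3st1 at 6.00 (3.57 to 9.91), with 38.0% of the Calca UMIs and 37.0% of the Hs3st1 UMIs in 1 cell. With 1 cell per clonotype these ratios were 2.49, 2.82 and 2.53. On a list of interferon response genes, 3 of 8 were lower and none higher, where 12.2% of all genes were lower. The list median was -0.47, which Isg15 at 0.61 (0.46 to 0.796) and Irf7 at 0.544 (0.341 to 0.828), or 0.328 with 1 cell per clonotype, illustrate. Ifitm1 was not counted on that list. Its relatives Ifitm2 and Ifitm3 were higher too, at log2 ratios of 1.18 and 1.16 over all cells and 0.59 and 0.77 with 1 cell per clonotype. Genes of DNA replication and mitosis had medians of 0.38 and 0.49, with 1 of 12 past the fold in each. Of 10 genes of tissue residence and gut homing, 1 was past 1.5-fold higher and 2 lower, with a median of 0.03. The 2 were the gut-homing receptor gene Ccr9, at 0.323 (0.153 to 0.602), and Itga4, an integrin chain of gut homing, at 0.492 (0.373 to 0.637). Ccr9 had 10 UMIs in V beta 5, 11 and 12 cells, 60% of them in 1 cell, and was at 0.132 with 1 cell per clonotype. Of 5 genes of follicular helper cells, 2 were higher and 2 lower, with a median of -0.10 over all cells and 0.16 with 1 cell per clonotype. Slamf6, a surface receptor of that list, was at 0.406. Type 1 genes had 1 of 8 higher and 2 lower with a median of -0.09, regulatory T cell genes 3 of 7 higher and 1 lower with a median of 0.24, and chemokines 3 of 7 higher and 3 lower with a median of -0.14.

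**Figure D4:**
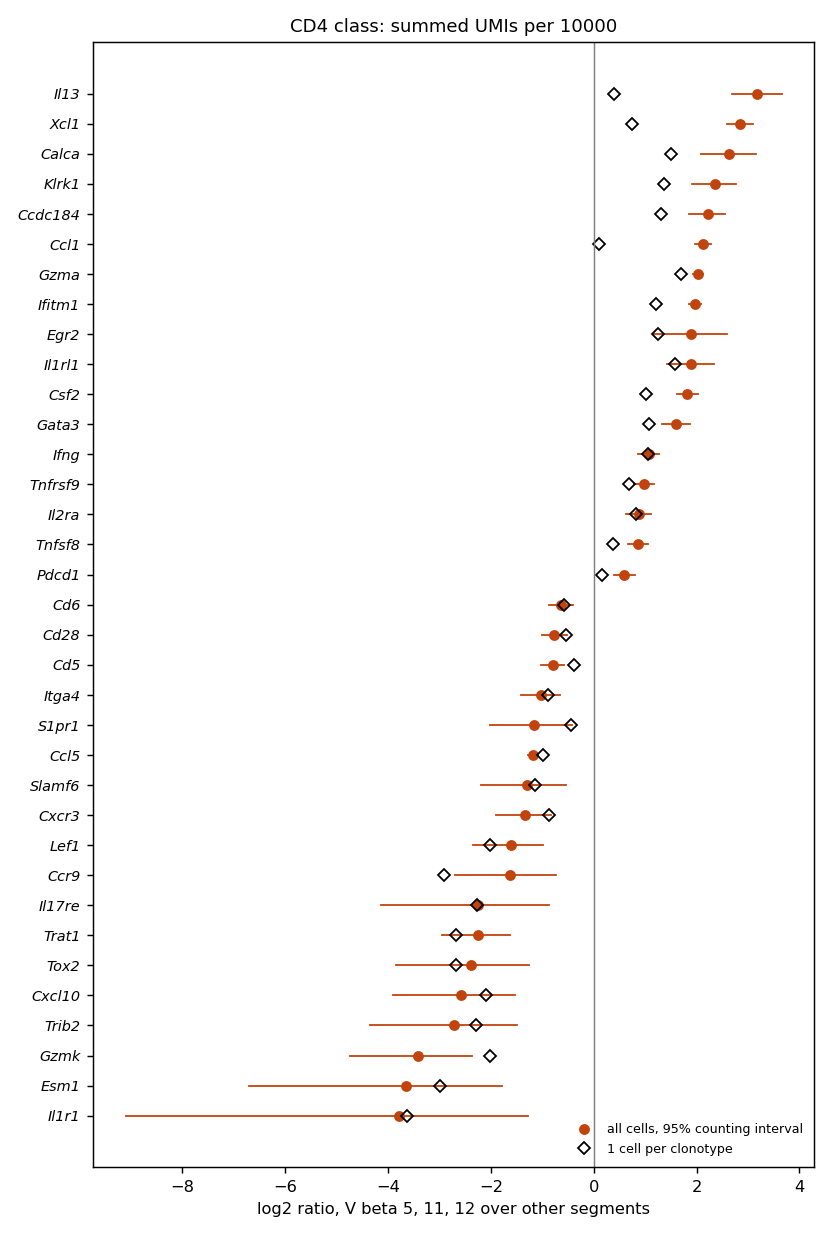
Log2 ratio of summed UMIs per 10000 in V beta 5, 11 and 12 cells over other segments for named genes of the CD4 class, over all cells with 95% counting intervals (filled circles) and with 1 cell per clonotype (open diamonds). Il13, Xcl1 and Ccl1 lay at 3.17, 2.85 and 2.13 over all cells and at 0.40, 0.75 and 0.10 with 1 cell per clonotype, while Trat1, Lef1 and Il1r1 kept log2 ratios of -2.67, -2.01 and -3.63.

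In the CD8 class 5.40% of genes were past 1.5-fold, against 19.1% in the CD4 class, which had fewer cells. With 1 cell per clonotype, at 61 and 57 V beta 5, 11 and 12 cells, the shares were 11.1% and 15.5%. Over all cells, V beta 5, 11 and 12 cells had higher summed levels of Gzma, Lgals3 and the chemokine genes Ccl1 and Xcl1, and lower summed levels of Cd5, Cd6, Trat1 and Ccr9. Each depended on whether 1 cell per clonotype was counted, on 1 cell, or on 1 or 2 segments, as given below. Of 8641 genes, 185 (2.14%) were 1.5-fold or more higher and 282 (3.26%) 1.5-fold or more lower, and at 2-fold 0.185% were higher and 0.833% lower. The 349 cells held 2290403 UMIs and the 1110 others 7527546, and the median log2 ratio of all genes was 0.00 to 2 decimals. Gzma turned round, and several other genes came close to 0, when each clonotype counted as 1 cell, with 61 cells against 193. This setting changes the cells compared as well as their weight. A clonotype was found in 191 of 349 V beta 5, 11 and 12 cells and 683 of 1110 others, and in 18 of 207 Trbv13-2 cells.

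Gzma had 33.1 UMIs per 10000 in V beta 5, 11 and 12 cells and 14.8 in the others, a ratio of 2.24 (2.17 to 2.30), but its log2 ratio of 1.16 became -0.49 with 1 cell per clonotype. Its level was 37.0 with Trbv12-1, 76.7 with Trbv12-2, 9.62 with Trbv15 and 8.12 with Trbv16, and the other segments ran between 4.48 and 45.6. The higher level thus belonged to the V beta 5 segments. Lgals3, the gene of galectin-3, had 6.66 and 4.29 UMIs per 10000, a ratio of 1.55 (1.46 to 1.65), and a log2 ratio of 0.64 over all cells and 0.04 with 1 cell per clonotype. Pdcd1, Klrc1 and Ccl4 had ratios of 1.47, 1.49 and 1.46 and log2 ratios of -0.03, 0.11 and 0.06 with 1 cell per clonotype. These 3 were under 1.5-fold over all cells, and like Lgals3 they were near 0 over clonotypes.

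Ccl1 had 1.04 and 0.185 UMIs per 10000, a ratio of 5.65 (4.57 to 7.02), with 56.1% of its UMIs from 1 cell. The share of thinned cells with a Ccl1 UMI was 1.15% and 1.17%, so that the shares of cells were close. With 1 cell per clonotype its ratio was 22.0, on 137 of the 239 Ccl1 UMIs of V beta 5, 11 and 12 cells against 21 in the others. That sum includes the same 1 cell, which gave most of it, so the ratio is no value over clonotypes in general. Xcl1 was at 1.59 (1.42 to 1.77) and Nrn1, the gene of neuritin, at 2.59 (1.79 to 3.73), and both levels were highest with Trbv16, at 8.00 and 1.08. Without Trbv16 their log2 ratios were -0.62 and -0.46. The interferon-induced genes Ifit3 and Ifit1 were at 3.53 (2.25 to 5.53) and 2.46 (1.58 to 3.81), on 44 and 39 UMIs in V beta 5, 11 and 12 cells. Of these UMIs 36.4% and 33.3% came from 1 cell. With Trbv12-1, Trbv12-2, Trbv15 and Trbv16, Ifit3 was at 0.0608, 0.0294, 0.325 and 0.577 UMIs per 10000, against 0.0545 in the others. Ifit1 was at 0.0521, 0.118, 0.400 and 0.326, against 0.0691. Slco4a1, Sord and Paxbp1 were at 3.6 (2.15 to 6.06), 2.63 (1.47 to 4.65) and 2.04 (1.45 to 2.85), on 34, 24 and 59 UMIs in V beta 5, 11 and 12 cells. With 1 cell per clonotype 4 to 40 UMIs stood behind each group's value of Ifit3, Ifit1, Nrn1 and Paxbp1, and the ratios were 13.5, 4.29, 7.93 and 4.87. Sord and Slco4a1 were at 7.87 and 1.87, on 3 to 9 UMIs. These genes were near the limit of what the depth shows.

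Cd5 had 0.799 UMIs per 10000 in V beta 5, 11 and 12 cells and 1.47 in the others, a ratio of 0.545 (0.464 to 0.638). Cd6 had 0.856 and 1.67, a ratio of 0.512 (0.439 to 0.596). By segment, Cd5 was at 0.608, 1.18, 0.600 and 1.23 and Cd6 at 0.547, 0.794, 0.825 and 1.83 with Trbv12-1, Trbv12-2, Trbv15 and Trbv16. The other segments had medians of 1.11 for Cd5 and 1.45 for Cd6, so that Cd5 was below the median in 2 of the 4 and Cd6 in 3 of the 4. Counting each clonotype as 1 cell gave log2 ratios of -0.43 for Cd5 and -0.13 for Cd6, against -0.87 and -0.96 over all cells. Ccr9 was at 0.251 (0.143 to 0.41) and Trat1 at 0.38 (0.255 to 0.549), with log2 ratios of -0.36 and -0.08 with 1 cell per clonotype. By segment, Trat1 was at 0.165, 0.147, 0.150 and 0.0501 UMIs per 10000 with Trbv12-1, Trbv12-2, Trbv15 and Trbv16, and 3 of these 4 stood above the median of the 12 other segments, at 0.138. Ccr9 was at 0.0608, 0.0882, 0.150 and 0.0251, of which 2 stood above the median of 0.0867. The highest levels were those of Trbv13-1, at 0.570 for Trat1 and 0.547 for Ccr9, and Trbv13-2 followed, at 0.409 and 0.355. By segment the levels thus overlapped, and the 4 did not stand together below the others.

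The granzyme genes Gzme and Gzmf had 0 and 47 UMIs in V beta 5, 11 and 12 cells and 126 and 407 in the others, of which 56.3% and 34.9% came from 1 cell. Lyz2 and Spp1, which macrophages express strongly, were at 0.205 and 0.338, with 51.7% and 50% of the UMIs of the others in 1 cell. Gzmf, Lyz2 and Spp1 were at 0.25, 0.472 and 0.105 with 1 cell per clonotype. The summed macrophage list had 0.515 UMIs per 10000 in V beta 5, 11 and 12 cells and 1.02 in the others, and 2 of its 10 genes were at 0 in V beta 5, 11 and 12 cells. In the CD4 class the same sums were 3.58 and 2.75. The part of such RNA in the gene differences was not tested beyond leaving out cells with 2 or more of its genes, after which the CD8 count past 1.5-fold was 481, against 467 in all cells.

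Of the gene lists in the CD8 class, the cytotoxic list had 2 of 14 genes past 1.5-fold higher and 1 lower, with a median log2 ratio of 0.27 over all cells and -0.22 with 1 cell per clonotype. Chemokines had 2 of 6 higher and a median of 0.52, or 0.29 with 1 cell per clonotype. Type 1 genes had none of 8 past the fold and a median of 0.27. Naive, memory and exit genes had 1 of 8 higher and 1 lower, with a median of 0.00, and genes of anergy and chronic stimulation had 1 of 15 lower and a median of 0.00. The naive and memory difference of the CD4 class was thus not seen in the CD8 class, although the difference between the classes was not tested.

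**Figure D5:**
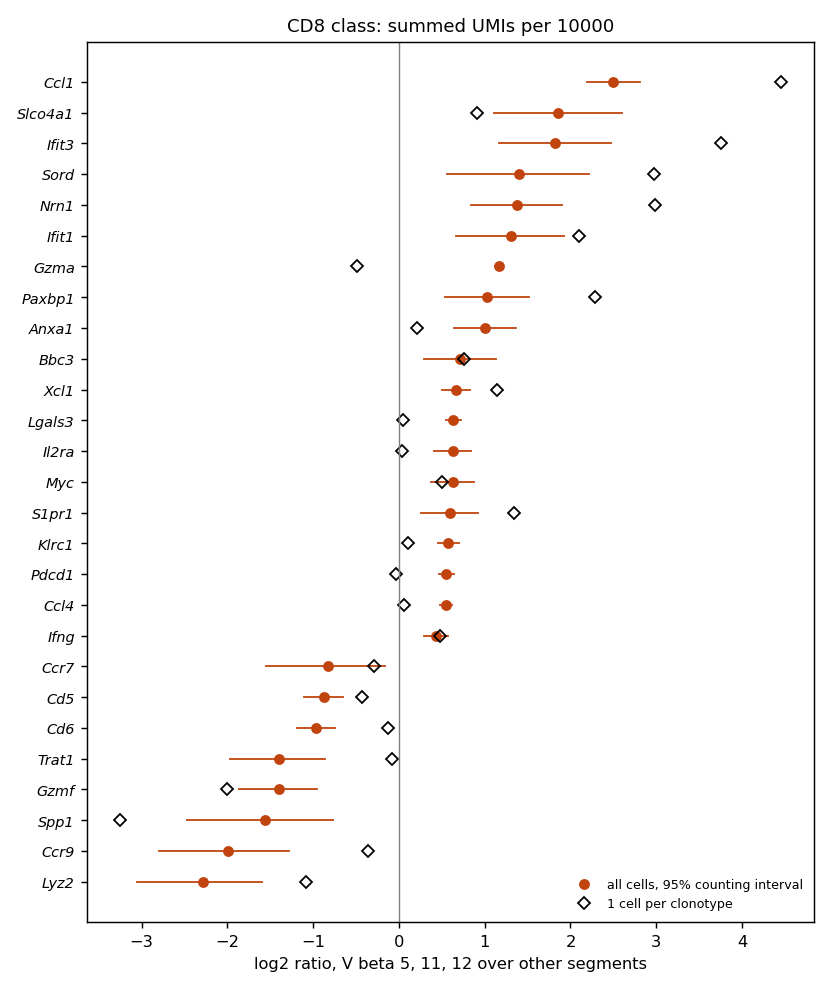
Log2 ratio of summed UMIs per 10000 in V beta 5, 11 and 12 cells over other segments for named genes of the CD8 class, over all cells with 95% counting intervals (filled circles) and with 1 cell per clonotype (open diamonds). Gzma lay at 1.16 over all cells and at -0.49 with 1 cell per clonotype, and Lgals3, Pdcd1, Klrc1 and Ccl4 lay between -0.03 and 0.11 with 1 cell per clonotype.

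Of 7864 genes measured in both classes, 33 were past 1.5-fold higher in V beta 5, 11 and 12 cells of both, 46 lower in both and 45 in opposite directions. Over all genes of each class, 2.14% were higher and 3.26% lower in the CD8 class, and 6.99% and 12.2% in the CD4 class. Whether the shared counts go beyond what unrelated calls would give was not tested. Higher in both were Ccl1, with log2 ratios of 2.50 in the CD8 class and 2.13 in the CD4 class, Gzma with 1.16 and 2.03, and Anxa1, the gene of annexin A1, with 1.01 and 1.65. Lower in both were Ramp1, a partner of the calcitonin receptor-like receptor, with -1.66 and -1.83, Ccr9 with -2.0 and -1.63, and Trat1 with -1.40 and -2.25, although in the CD8 class Ccr9 stood above the median of the other segments in 2 of the 4 and Trat1 in 3 of the 4. Mturn with -1.28 and -1.30, the tetraspanin gene Cd9 with -1.45 and -1.24, and Asns, the gene of asparagine synthetase, with -1.01 and -1.69 were also lower in both. With 1 cell per clonotype the CD8 log2 ratios of Anxa1, Mturn and Cd9 were 0.21, -0.36 and -0.83, and the CD4 log2 ratio of Ramp1 was -2.55. Of the genes named here Gzma had the opposite sign in the CD8 class with 1 cell per clonotype, and Asns had too few UMIs in the CD4 class to give a value.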

How the data were processed

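The RNA values are the deposited UMI counts per gene and barcode, as whole numbers without scaling. They were made with Cell Ranger on mm10, per the submitters' processing notes, which give no version. The contig table holds the deposited counts of reads and UMIs per assembled TCR contig, with chain, segments, CDR3 and productivity as the authors annotated them, and its receptor reference was not stated.

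Barcodes with at least 500 genes and at most 10% mitochondrial UMIs were kept. Classes were CD8 (Cd8a or Cd8b1 UMI, no Cd4 UMI) and CD4 (Cd4 UMI only). Doublets were not called; cells with 2 or more productive TRB chains were left out in an alternative. Clonotypes required a sole productive TRB chain together with any productive TRA chain. Ratios of summed UMIs carry exact conditional binomial 95% intervals and shares carry Clopper-Pearson intervals. For a gene at 0, the group's floor was 3 UMIs in all. Receptor and immunoglobulin segment genes were left out of the gene comparisons.

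Named genes were, in each class, the 10 highest and 10 lowest by the interval bound nearest 1 whose ratio lay on the same side of 1 with 1 cell per clonotype, without mitochondrial, ribosomal protein and predicted genes. Up to 3 genes of each of 26 gene lists and up to 10 genes past 1.5-fold in both classes were added. The result of 1 further gene chosen this way is not reported here. A few genes outside this rule (the list members Il4, Ccr8, Ccr4, Il17a and Ltb, and Ifitm2 and Ifitm3) were named after their values were seen. The cells and lists were chosen with earlier results of these data known. The ratio step was tested on Poisson counts with known changes, without spread between cells: 96.0% of 8641 intervals held the true ratio for CD8 and 95.8% of 7996 for CD4. Tools were Python 3.11.15, numpy 2.4.6, scipy 1.17.1, pandas 2.3.3, Biopython 1.88 and matplotlib 3.10.9.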

Additional observations from a re-analysis of the deposited data

How the results depend on the processing

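No paired analysis was possible because the pool is 1 sample, and for the same reason nothing could be left out as a replicate. Alternatives to the filters, the segment rule, the weighting and the clonotype definition were run in its place; those by TRB chain, by distinct clonotype and by clonotypes of 1 cell were chosen after seeing the data. The V beta 5, 11 and 12 share of CD8 cells was 21.1% with all Trbv UMIs from 1 segment, 11.9%, 20.4%, 19.0% and 19.9% without Trbv12-1, Trbv12-2, Trbv15 and Trbv16, and 27.1% by TRB chain. The CD4 share was 8.96% by contig, 5.58%, 4.85% and 5.02% without Trbv12-1, Trbv15 and Trbv16, 22.7% by clonotype and 25.8% by TRB chain. The own-segment share was 99.0% from 3 Trbv UMIs, and the contig rule cannot give it. The CD8 expanded share was 72.4% without Trbv12-1, 86.3% without Trbv16, 85.8% by TRB alone and 71.2% from 3 cells, and the CD4 expanded share was 16.9% from 3 cells. Genes past 1.5-fold numbered 467 for CD8, and 715 with all UMIs from 1 segment, 810 without Trbv12-1, 932 from 20 UMIs, 58 from 200 UMIs and 88 at 2-fold. For CD4 they numbered 1531, and 672 with 1 cell per clonotype, 2433 from 20 UMIs, 408 from 200 UMIs, 470 at 2-fold, 631 by TRB chain and 439 in clonotypes of 1 cell. The cause was not tested; fewer cells or UMIs enter several of these settings. The share of higher genes among those past the fold was 36.5% for CD4 and 49.9% in clonotypes of 1 cell, and 39.6% for CD8 and 50% from 200 UMIs. Of 93 log2 ratios of named genes past 1.5-fold, 73 kept their sign under every alternative run and 20 did not; of 40 under that fold, 17 changed sign. The highest and lowest genes were chosen for having the same sign with 1 cell per clonotype, so that this setting is no independent check of them. Of those past the fold, these changed sign in the CD8 class: Cd74 at 1.16 with looser filters and 0.16 without cells with 2 macrophage genes, Csf2 and Gzmf at 0.29 and 0.41 by contig, Xcl1 at -0.21 with all UMIs from 1 segment, and Xcl1 and Nrn1 at -0.62 and -0.46 without Trbv16. Gzma was at -0.49 with 1 cell per clonotype, and Lgals3, Lyz2 and Trat1 were at -0.10, 0.85 and 0.14 with 1 cell per TRB chain. In clonotypes of 1 cell Gzma, Lgals3, Trat1, Cd6, Ramp1 and Ccr9 were at -1.27, -0.063, 0.38, 0.38, 0.12 and 0.0025. In the CD4 class Mturn was at 0.091 by contig, Ier3 at -2.64 without Trbv15, Il10 and Lag3 at 0.50 and -0.31 with 1 cell per clonotype, Il10 at 0.29 by TRB chain and Pecam1 at 0.077 when thinned. In clonotypes of 1 cell Ccl1, Ifng, Lag3 and Pdcd1 were at -0.43, -0.16, -0.64 and -0.16. With 88 CD4 cells, a gene with few UMIs has intervals too wide to show a difference under 2-fold.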
